A study of Rattus norvegicus with 8 samples.

Results

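The hepatic transcript response of obese rats to testosterone was measured on the 4 arrays titled as obese liver, out of 8 arrays in the study. Each of these dual-colour Agilent rat arrays carried liver RNA of vehicle-treated obese male Zucker diabetic fatty rats (fa/fa) in Cy3 and liver RNA of testosterone-treated obese rats in Cy5. The value of a gene on an array is therefore the log2 ratio of treated over vehicle signal, and the 4 arrays are the 4 biological replicates that the labels name. Treated rats had received 20 mg/kg of testosterone undecanoate (TU), an esterified testosterone that is released slowly, by subcutaneous injection in propylene glycol. Dosing lasted 4 weeks, every 3 days in the opening 2 weeks and weekly in the closing 2 weeks. All rats were males labelled as 12 weeks old. The comparison group was 4 arrays of lean rats (fa/+) under the same regimen and with the same dyes. The sources used here do not say whether an RNA was taken from a single rat or a pool, or whether the rats were castrated, so p-values measure the spread between these arrays. No array had its dyes exchanged, so the response of a gene and any dye bias of its probe cannot be told apart within a genotype. All obese arrays lay on 1 slide and all lean arrays on another, and a difference between genotypes cannot be told apart from one between slides.

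Testosterone acts in the liver directly or after conversion to dihydrotestosterone or estradiol, and also by setting the male pattern of pituitary growth hormone release, which controls many sex-biased liver enzymes. The fa allele disables the leptin receptor. Homozygous rats overeat, become insulin resistant and accumulate hepatic fat. Their livers are known for high expression of the enzymes that turn glucose into fatty acids, whose genes are driven by the insulin-regulated factor SREBP-1c and the glucose-regulated factor ChREBP.

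After removal of dim probes, 24143 features were tested. They included 9982 genes with a name, and the brightest probe stood for each gene. All 12 hepatocyte markers with a probe, such as Alb and Ttr, lay well above background in both channels on all 4 obese arrays. Between 58.5% and 62.2% of probes were well above background in Cy3 and 50.5% to 60.6% in Cy5. Obese array 2 stood apart from the other 3. The SD of its log2 ratios was 0.462, against 0.237, 0.107 and 0.136 on arrays 1, 3 and 4. On array 2, 17.8% of features differed more than 1.5-fold between channels, against 2.84%, 0.495% and 0.466%. Over all features, ratios were thus wider on arrays 1 and 2 than on arrays 3 and 4. Splits of single genes or lists between these pairs were not tested apart from that. The connective tissue collagen Col1a1 had a log2 ratio of 3.21 on array 2 and of -0.25 to 0.51 elsewhere, and the globin Hbb had -2.62 against -0.35 to 0.44, both chosen after their values were seen. Log2 ratios of 2 obese arrays correlated across features with r from 0.181 to 0.369, although features are not independent replicates. The list results below are therefore given also without array 2.

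In obese liver 3 genes passed the test, all higher with TU: the glutamate dehydrogenase Glud1, the kinase Pim3 and the androgen-conjugating glucuronosyltransferase Ugt2b. They are 3 of 24141 features tested, a background of 0.0124% called higher and 0% called lower by limma at an adjusted p under 0.05. At an unadjusted p under 0.05 the fit counted 1577 features higher (6.53%) and 1470 lower (6.09%). Glud1, which links glutamate to the citric acid cycle, had log2 ratios of 0.71, 0.88, 0.58 and 0.65 on obese arrays 1 to 4. All 4 arrays lay above 0 and within 0.3 of each other, and its mean was 0.70 ± 0.054 (SE, n = 4; 1.63-fold; limma adjusted p = 0.0126). A pair of other Glud1 probes, both dimmer, gave means of -0.17 and -0.19, so the call holds for the brightest probe. Pim3, a serine kinase induced by cytokine and growth hormone signals, stood at 0.77, 1.20, 0.76 and 0.72. Array 2 was the highest, the other 3 were nearly equal, and the mean was 0.86 ± 0.082 (SE, n = 4; 1.82-fold; limma adjusted p = 0.0276). Ugt2b glucuronidates steroids and belongs to a family of close paralogs that a probe may not separate. Its log2 ratios were 0.78, 0.63, 0.44 and 0.73, lowest on array 3, with a mean of 0.64 ± 0.062 (SE, n = 4; 1.56-fold; limma adjusted p = 0.0276), and a second probe gave 0.41.

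These calls rested on the spread that all 8 arrays share. Without array 2 Glud1 stood at 0.65 (limma adjusted p = 0.00599), Pim3 at 0.75 (0.00599) and Ugt2b at 0.65 (0.0914). None of the 3 passed when any lean array was left out, where the largest limma adjusted p was 0.121, nor without obese array 1 (0.179) or on the obese arrays alone (0.643), and in those fits 0 features passed at an adjusted p under 0.05, while 957 were higher and 628 lower at an unadjusted p under 0.05 on the obese arrays alone. Without array 3 Pim3 did not pass (0.144). Without array 4 Glud1 (0.0501), Pim3 (0.0687) and Ugt2b (0.119) did not pass, and the stearoyl-CoA desaturase Scd was the 1 feature that did, lower at -1.67 (limma adjusted p = 0.00736). Under the scanner software's own processed signals Pim3 kept its call (0.96, limma adjusted p = 0.0117), while Glud1 (0.58, 0.0524) and Ugt2b (0.52, 0.0667) did not. From those signals 208 features passed, 154 higher (0.638%) and 54 lower (0.224%), and 64 of the 76 named genes among them had a mean log2 signal under 8, as had 42.9% of all named genes tested.

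A further set of genes had the same sign on all 4 obese arrays without passing. Over all features with 4 values, 13.2% lay above 0 on every obese array and 10.3% below. The mitochondrial isocitrate dehydrogenase Idh2, which makes NADPH in mitochondria, stood at 0.38, 0.63, 0.44 and 0.60 (mean 0.51 ± 0.058; limma adjusted p = 0.0748), and a dimmer probe gave -0.0012. Apolipoprotein Apoc1 stood at 0.56, 0.66, 0.40 and 0.37 (mean 0.50 ± 0.061; limma adjusted p = 0.116). The plasma protein precursor Ambp stood at 0.71, 0.44, 0.70 and 0.77, and the ubiquinol-cytochrome c reductase subunit Uqcr10 at 0.61, 1.04, 0.59 and 0.64. Other members of this upper set were the ribosomal proteins Rpl35 and Rps21, the alpha-tocopherol transfer protein Ttpa, the cortisone-reducing enzyme Hsd11b1 and the androgen-inactivating enzyme Hsd3b5, with means of 0.29 to 0.70. Of these 12 genes, Pim3 alone had a mean log2 signal under 12. The level of bright genes depends on loess: under median centring the median of the 1599 features with a mean log2 signal of 12 or more moved from -0.01 to 0.34.

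In the lower set the lowest mean was that of Stac3, an adaptor best known from muscle, with -2.05, -1.90, -0.66 and -0.66 (mean -1.32 ± 0.24; limma adjusted p = 0.203). Arrays 1 and 2, whose ratios spread more widely over all features, were alike there, as were arrays 3 and 4. Serpina6, the corticosteroid-binding globulin of plasma, stood at -0.92, -1.48, -0.69 and -0.52 (mean -0.90 ± 0.13; 1.87-fold; limma adjusted p = 0.166). The virus-tethering protein Bst2 stood at -1.05, -1.19, -0.76 and -0.64, with a second probe at -0.80, and the interferon-induced Ifi27 at -0.69, -0.73, -1.30 and -0.36. The macrophage glycoprotein Cd68 stood at -0.49, -0.25, -0.73 and -0.32. The adiponectin receptor Adipor2, the immunophilin Fkbp1a, the lysosomal adaptor Lamtor1, the galectin-binding Lgals3bp, the apolipoprotein L gene Apol3l1, the zinc finger gene Zfp513 and the immunoproteasome subunit Psmb8 completed the set, with means of -0.27 to -0.61. From the processed signals Idh2, Ambp, Serpina6, Bst2 and Stac3 passed (limma adjusted p = 0.0438 to 0.0482).

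**Figure D1:**
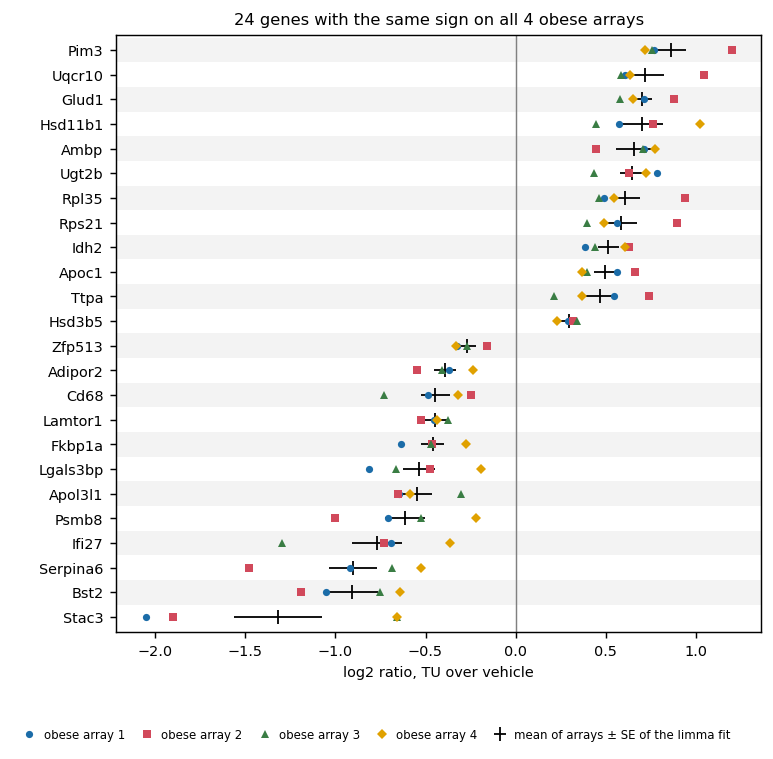
Log2 ratios of TU over vehicle (x axis) of the 12 highest and 12 lowest genes by moderated statistic among those with 1 sign on all 4 obese arrays (y axis), with 1 marker per array and a bar for the mean ± SE of the limma fit. Pim3 shows array 2 at 1.20 beyond the other 3 arrays, and Stac3 splits into arrays 1 and 2 near -2.0 and arrays 3 and 4 at -0.66.

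The genes were then read by list. A list member is called higher or lower at an unadjusted p under 0.05, which over all features was so for 6.53% and 6.09%, and without array 2 for 3.23% and 3.43%. The enzymes that make fatty acids had the lowest list median of the 23 lists. Of 17 genes listed for fatty acid synthesis and its NADPH supply, 15 passed the filter on dim probes, and all 15 had a mean below 0. Of these, 0 passed the test, 10 were lower at an unadjusted p under 0.05 (background 6.09%) and 6 lay below 0 on every array (10.3%). The median of the list was -0.56, against -0.01 over all features. Its medians on arrays 1 to 4 were -0.67, -1.32, -0.03 and -0.15, lowest on arrays 1 and 2. Without array 2 the median was -0.30, with 0 members higher and 6 lower at an unadjusted p under 0.05 (backgrounds 3.23% and 3.43%), and with 0 above 0 and 6 below 0 on all 3 arrays (backgrounds 19.7% and 15.2%).

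Malic enzyme Me1, which supplies NADPH, stood at -2.58, -1.64, -1.30 and -0.60 (mean -1.53 ± 0.31; 2.89-fold lower; limma adjusted p = 0.216). A second Me1 probe gave -1.0. All 4 arrays lay below 0, array 1 the most. Fatty acid synthase Fasn stood at -1.78, -1.82, -1.0 and 0.08 (mean -1.13 ± 0.32; limma adjusted p = 0.337), and its second probe gave -1.11. Arrays 1 to 3 were low and array 4 was near 0. ATP citrate lyase Acly, which releases acetyl-CoA from citrate, stood at -1.47, -0.93, -0.03 and -0.52. Liver pyruvate kinase Pklr, a ChREBP target, stood at -1.37, -2.62, -0.73 and -0.15. The lipogenic regulator Thrsp was low on arrays 1 and 2 alone, at -1.49 and -1.32, against 0.13 and -0.08. Acetyl-CoA carboxylase Acaca was low on array 2 alone (-1.35), with 0.07, -0.02 and -0.02 on the others.

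Desaturases and elongases shared the pattern. All 11 that passed the filter had a mean below 0, 0 passed the test, 8 were lower at an unadjusted p under 0.05, 7 lay below 0 on every array, and the median was -0.51. On arrays 1 to 4 the list medians were -0.56, -1.44, -0.07 and -0.11. Without array 2 the median was -0.20 and 5 members were lower at an unadjusted p under 0.05. The long-chain elongase Elovl6 had the lowest mean of all named genes, at -3.45, -2.22, -0.66 and -0.56 (mean -1.72 ± 0.46; 3.30-fold lower; limma adjusted p = 0.320), and a dim second probe gave -1.22. The stearoyl-CoA desaturases Scd and Scd2, which make monounsaturated fatty acids, were low on arrays 1 to 3 (Scd -1.91, -1.50 and -1.61; Scd2 -1.43, -2.10 and -1.14) and slightly above 0 on array 4 (0.29 and 0.09). Over 4 arrays Scd had a mean of -1.18 ± 0.30 (limma adjusted p = 0.306), and its call without array 4 is given above. Dimmer Scd2 probes gave -0.06 and -0.0012.

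**Figure D2:**
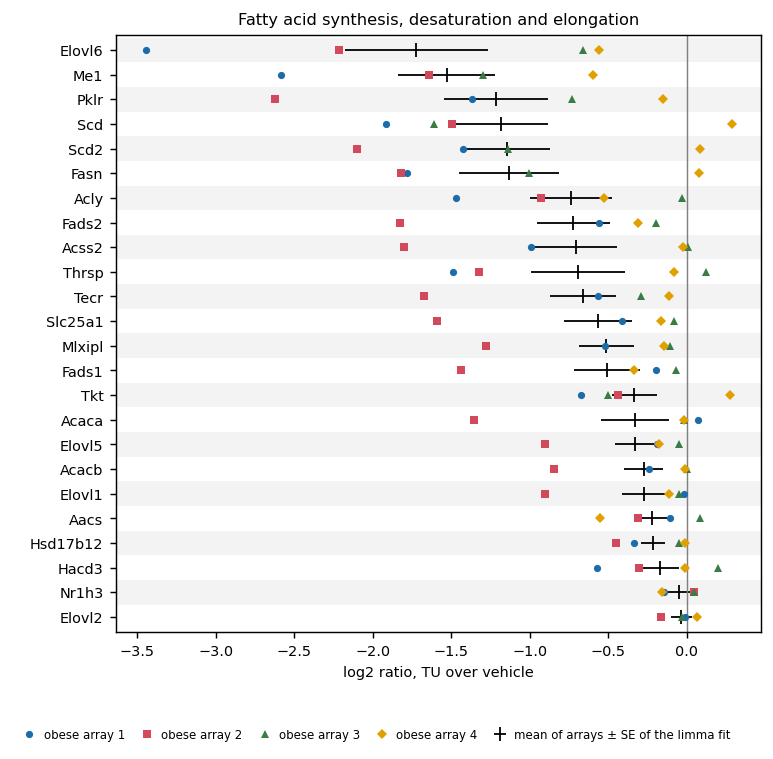
Log2 ratios of TU over vehicle (x axis) of measured genes of fatty acid synthesis, desaturation and elongation (y axis), with 1 marker per obese array and a bar for the mean ± SE. Every mean lies below 0, and arrays 1 and 2 lie left of arrays 3 and 4 for most genes, as for Elovl6 at -3.45 and -2.22 against -0.66 and -0.56.

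The channels were then examined separately, after scaling of the arrays to each other, to see on which side the arrays differed. Vehicle and treated RNA carry different dyes, so levels are not compared between channels. A difference in spread between the channels cannot be told apart from one between the dyes. Over all features with 4 values the SD over arrays was larger in the vehicle than in the TU channel for 60.1%, and over named genes for 63.3%. For fatty acid synthesis this was so for 11 of 15 genes (73.3%), not far above those shares. Its median SDs were 0.638 in the vehicle and 0.347 in the TU channel (log2 units). They were 0.175 and 0.141 over all features, and 0.234 and 0.176 over named genes. The spread was not computed without array 2. For desaturases and elongases it was so for 7 of 11 genes (63.6%), near the share over all features. Elovl6, of the latter list, had vehicle levels of 13.25, 12.14, 10.56 and 11.52 (log2 signal) on arrays 1 to 4, and TU levels of 9.80, 9.92, 9.90 and 10.96. Its vehicle signal ranged over 6.47-fold and its TU signal over 2.23-fold. Acly ranged over 4.24-fold in the vehicle and 1.57-fold in the TU channel. Scd did not share this, at 2.46-fold and 3.59-fold.

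Genes of triglyceride synthesis and storage were fewer below 0. Of 17 measured, 11 were below 0, 4 were lower at an unadjusted p under 0.05, 6 were below 0 on every array, and the median was -0.12 (-0.06 without array 2). The acyltransferases that start and finish triglyceride assembly, Gpam (-1.26, -1.99, -0.05 and -0.21) and Dgat2 (-0.78, -1.59, -0.02 and -0.10), were low on arrays 1 and 2 and near 0 on arrays 3 and 4, and other Dgat2 probes gave -0.78 and -0.48. The monoglyceride lipase Mgll stood at -0.44, -1.06, -0.18 and -0.27.

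Cholesterol synthesis was mixed. Of 21 genes measured, 6 were higher and 5 lower at an unadjusted p under 0.05, against backgrounds of 6.53% and 6.09%, 0 passed the test, and the median was -0.10. Without array 2 these counts were 1 and 0. Hmgcs1, which makes HMG-CoA for sterols, stood at 1.10, 1.64, 0.79 and -0.09 (mean 0.86 ± 0.28; limma adjusted p = 0.360), with a second probe at 0.49. The sterol reductase Tm7sf2 stood at 0.44, 0.44, 0.76 and 0.24, and lanosterol synthase Lss at -0.37, -0.79, 0.00 and -0.24. Idi1, Sqle and Msmo1, chosen after their values were seen, followed Hmgcs1 in sign, above 0 on arrays 1 to 3 and at -0.48, -0.20 and -0.38 on array 4. The SREBP retention protein Insig1 had no value on array 4, and its brightest probe (-0.49, 1.02 and 1.09) disagreed with its other 3 probes (means -0.27 to -0.39). In its list of sterol sensing and uptake 3 of 14 genes were higher and 1 lower, with a median of 0.06, and without array 2 the counts were 0 and 0 and the median 0.04.

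Fatty acid oxidation leaned the other way by a small amount. In mitochondrial oxidation 16 of 22 genes were above 0, 6 were higher and 1 lower at an unadjusted p under 0.05, 6 lay above 0 on every array, and the median was 0.11. Without array 2 the median was 0.04, with 5 higher and 0 lower. The dienoyl-CoA reductase Decr1 stood at 0.46, 1.64, 0.53 and 0.24, and the short-chain dehydrogenase Acads at 0.47, 0.42, 0.01 and 0.30. The carnitine palmitoyltransferase Cpt1a, the gate of mitochondrial oxidation, had no common sign at 0.80, -0.54, -0.12 and 0.22. Among 24 peroxisomal genes and PPAR alpha targets 6 were higher and 3 lower at an unadjusted p under 0.05, with a median of 0.08 (4, 3 and 0.06 without array 2). The thioesterase Acot2 stood at 0.66, 1.17, 0.20 and 0.40. Other PPAR alpha targets did not follow: the fatty acid hydroxylase Cyp4a1 ranged from -0.08 to 0.08, the glycoprotein gene Creg1 stood at -0.99, -1.08, -0.45 and -0.21, and the fasting hormone Fgf21 stood at 0.13, -0.69, -1.52 and -1.63. On array 1 Cyp4a1 was near background, with median signals of 51 in Cy3 and 75 in Cy5 over backgrounds of 19 and 47. Its ratio there carries little information, and its Cy3 signal was 6039 to 21126.8 on the other arrays.

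Among 31 measured genes of lipoproteins and fatty acid uptake, 10 were higher and 5 lower at an unadjusted p under 0.05, with a median of 0.07 (8, 5 and 0.12 without array 2). Hepatic lipase Lipc stood at -0.88, -0.64 and -0.25 with no value on array 4. The triglyceride-loading protein Mttp had a mean of 0.01 ± 0.12, and a dim second probe gave -0.45. Apob, the structural protein of VLDL, had a mean of -0.16 ± 0.18 at its brightest probe, and its other 4 probes had means of -0.33 to 0.09. The sterol exporter Abcg5 was dim and stood at 1.01, 1.70, 0.16 and 0.18, and the HDL receptor Scarb1 at 0.41, 0.45, 0.16 and -0.10, with a dimmer Scarb1 probe at -0.26.

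Bile acid genes were mixed. Of 19, 5 were higher and 3 lower at an unadjusted p under 0.05 (backgrounds 6.53% and 6.09%), and without array 2 1 was higher and 1 lower (3.23% and 3.43%). The median of their means was -0.11 with array 2 and 0.04 without it, and the list medians of the single arrays lay between 0.01 and 0.11. The rate-limiting enzyme Cyp7a1 had no value on array 1 and stood at 0.11, 1.01 and 0.30 on the others (mean 0.47 ± 0.68). The hepatic uptake carriers Slco1a4 (0.86, 1.08, 0.03 and 0.19) and Slco1b2 (0.29, 0.54 and 0.21, with no value on array 4) stood above 0, and the canalicular pump Abcc2 stood at -0.53, -0.08, -0.05 and -0.66.

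The glucose-producing enzymes were mixed too. Of 25 genes 4 were higher and 2 lower at an unadjusted p under 0.05, with a median of 0.01 (3, 0 and 0.02 without array 2). Phosphoenolpyruvate carboxykinase Pck1 stood at 0.68, -0.71, -0.46 and 0.22, and glucose-6-phosphatase G6pc1 at 0.13, -0.17, -1.28 and 0.66. Pck1 was dim on array 1, with a median Cy3 signal of 104.5, against 4108.5 to 10728 on the other arrays. Fructose bisphosphatase Fbp1 stood at 0.17, 0.69, 0.49 and 0.47, with a second probe at -0.45, and the insulin receptor Insr at 0.32, 0.60, 0.02 and 0.18. In amino acid and urea cycle genes the arrays disagreed, with list medians of -0.11, -0.48, 0.27 and 0.10 over 36 genes. Of these 5 were higher and 2 lower, with a median of -0.05, and without array 2 7 were higher and 1 lower, with a median of 0.07. Besides Glud1, the mitochondrial proline dehydrogenase Prodh stood at 0.12, 0.50, 0.77 and 0.63, while its other probes gave -0.01 and -0.16, and liver glutaminase Gls2 stood at -0.04, 0.66, 0.62 and 0.40.

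Steroid-metabolizing enzymes were mixed, with more members above 0 than below. Of 34 measured 12 were higher and 5 lower at an unadjusted p under 0.05, 10 lay above and 3 below 0 on every array, and the median was 0.10. Without array 2 the median was 0.12, with 9 higher and 3 lower. Ugt2b passed. Hsd11b1, which regenerates glucocorticoid, stood at 0.57, 0.76, 0.45 and 1.02, and a second probe gave a mean of 1.09. Hsd3b5, a male-specific 3-ketosteroid reductase, was the most even, at 0.29, 0.32, 0.34 and 0.23. The 5 alpha-reductase Srd5a1, which makes dihydrotestosterone and is female-predominant in rat liver, stood at -0.85, -1.44, -0.35 and -0.44 (mean -0.77 ± 0.17; 1.71-fold lower; limma adjusted p = 0.249), with a second probe at -0.76.

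Sex-biased liver genes showed no common direction in obese rats. Of 19 male-biased genes 3 were higher and 5 lower at an unadjusted p under 0.05 (median 0.01), and of 18 female-biased genes 4 were higher and 3 lower (median 0.05). Without array 2 the male-biased counts were 2 and 5 (median 0.01) and the female-biased counts 2 and 4 (median 0.01). The main male-specific cytochrome Cyp2c11 stood at -0.45, -0.11, -0.24 and -0.04, and its female counterpart Cyp2c12 at -0.24, 0.06, -0.25 and -0.31. The male-biased Cyp2a2 (-0.63, -1.50, -0.19 and -0.19) and Cyp2c22 (-1.14, -0.95, -0.59 and -0.09) were below 0 on every array. The female-biased sulfotransferase Sult2a6 stood at 0.81, 0.92, 1.25 and 0.27. In growth hormone and leptin signalling 4 of 22 genes were higher and 1 lower at an unadjusted p under 0.05 (backgrounds 6.53% and 6.09%), with a median of 0.01, and the counts were the same without array 2 (median 0.00134). Igfals, which carries circulating IGF-1, stood at -0.86, -1.56, -0.23 and -0.56. For Igf1 itself the brightest probe had a mean of 0.09 ± 0.13, while 3 other probes lay below 0 on every array, with means of -0.23, -0.29 and -0.08. The leptin receptor Lepr, whose coding defect marks these rats, ranged from -0.07 to 0.02. Its probe was dim, with a mean log2 signal of 7.69, and the processed signals gave a mean of -0.33, so this range does not show an unchanged transcript. The glucocorticoid-responsive factor Klf9 stood at 0.19, 0.63, 0.16 and 0.31, with a dim second probe at -0.01.

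Acute phase genes had a median of 0.06, with 5 of 29 higher and 3 lower at an unadjusted p under 0.05 (6, 0 and a median of 0.10 without array 2). The metal-binding metallothionein Mt1 had the largest mean of all named genes, with log2 ratios of 3.36, 2.95, 1.05 and 0.63 (mean 2.00 ± 0.42; 3.99-fold; limma adjusted p = 0.222). Arrays 1 and 2 again lay beyond arrays 3 and 4. Per channel its TU level was nearly constant at 16.77, 16.66, 16.85 and 16.41 (log2 signal), while its vehicle level was 13.42, 13.72, 15.80 and 15.78. The protease inhibitor Serpina3n stood at 0.32, 0.68, 0.43 and 0.31.

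Interferon-induced genes and genes of antigen presentation stood lower with TU across arrays. Of 32 measured, 27 had a mean below 0, 0 passed the test, 0 were higher and 11 lower at an unadjusted p under 0.05, and 11 lay below 0 on every array. All 32 were well above background in Cy3 on all 4 arrays, but 26 were in Cy5, so these counts include members dim in the TU channel. The median was -0.16 (-0.15 in lean rats), and the list medians on arrays 1 to 4 were -0.22, -0.24, -0.16 and -0.08. Without array 2 the median was -0.18, with 29 members below 0, 8 lower at an unadjusted p under 0.05 and 15 below 0 on all 3 arrays (background 15.2%). The interferon regulatory factor Irf7 stood at -1.68, -1.25, -0.90 and -0.61 (mean -1.11 ± 0.21; 2.16-fold lower; limma adjusted p = 0.213). Psmb8 stood at -0.71, -1.0, -0.52 and -0.22 and the antiviral membrane protein Ifitm3 at -0.21, -0.65, -0.77 and -0.39. On array 1 Ifitm3 was near background, so its ratio there carries little information. Its median signals there were 40 in Cy3 and 46.5 in Cy5, over backgrounds of 19 and 41. On the other arrays its Cy3 signal was 459 to 4424. From the processed signals Irf7 passed (-1.25, limma adjusted p = 0.0410). Among members chosen after their values were seen, the RNA-sensing synthetase Oas1a stood at -2.32, -0.55, -1.10 and -0.97, and the ubiquitin-like Isg15 at -2.77, -0.90, -0.19 and -0.67. Vehicle levels of Oas1a, Isg15 and Irf7 were highest on array 1, at 13.41, 12.13 and 12.59 (log2 signal). On the other arrays they reached at most 11.22, 9.46 and 11.09. Their TU levels were also highest on array 1, at 11.09, 9.36 and 10.91. The class II gene RT1-Da (0.30, 0.76, -0.28 and 0.29) did not share the sign.

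**Figure D3:**
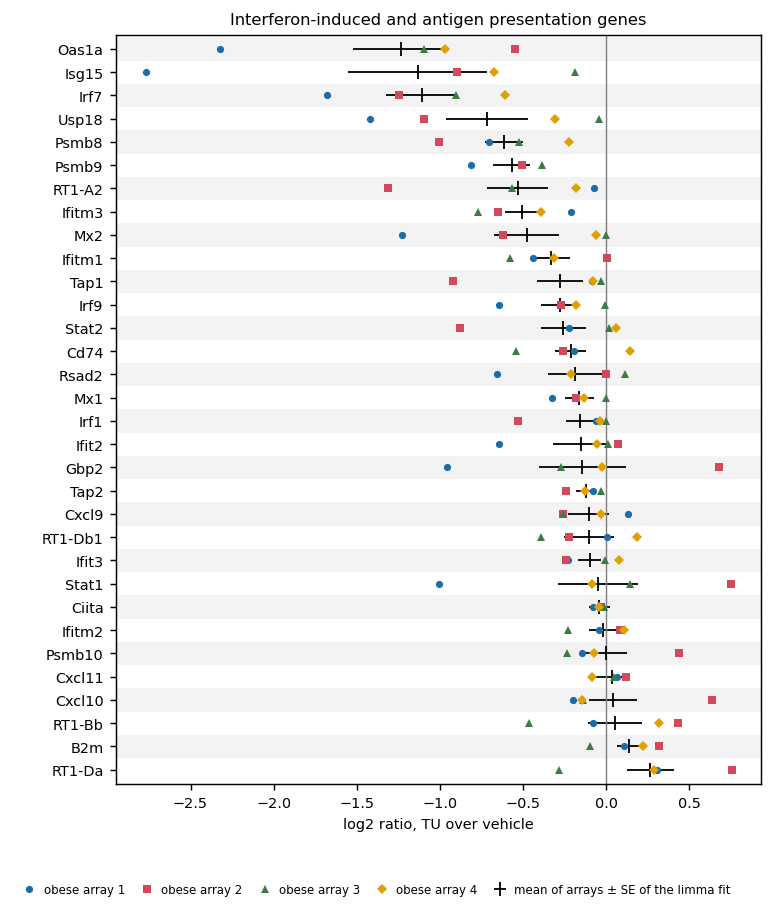
Log2 ratios of TU over vehicle (x axis) of the 32 measured interferon-induced and antigen presentation genes (y axis), with 1 marker per obese array and a bar for the mean ± SE. Oas1a, Isg15 and Irf7 lie lowest, array 1 is the lowest of the 4 for each of them, and RT1-Da has arrays on both sides of 0.

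Promoter sequences are shown for 4 of the interferon-linked genes that stood below 0 on every array and hold the interferon-stimulated response element, the element through which interferon acts on its target genes. The windows run from 250 bases before to 50 after the start site, 5' to 3' on the gene's strand, from RefSeq on build GRCr8, and capitals mark matches, on either strand, of GAAA followed by any 2 bases and GAAA again, which overlap in Bst2.
Irf7 (chr1:205799974-205800273, minus strand): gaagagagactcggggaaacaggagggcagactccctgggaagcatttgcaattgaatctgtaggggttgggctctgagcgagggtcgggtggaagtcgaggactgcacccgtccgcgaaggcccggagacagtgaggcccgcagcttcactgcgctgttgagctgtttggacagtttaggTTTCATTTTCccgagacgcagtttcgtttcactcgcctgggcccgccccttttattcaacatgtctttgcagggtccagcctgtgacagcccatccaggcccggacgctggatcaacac
Psmb8 (chr20:4656982-4657281, minus strand): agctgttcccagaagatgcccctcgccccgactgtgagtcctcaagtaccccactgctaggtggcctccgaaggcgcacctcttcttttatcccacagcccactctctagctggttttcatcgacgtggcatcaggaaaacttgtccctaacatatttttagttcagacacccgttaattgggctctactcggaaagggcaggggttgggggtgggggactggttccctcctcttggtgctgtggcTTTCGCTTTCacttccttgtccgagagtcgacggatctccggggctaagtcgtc
Bst2 (chr16:18254918-18255217, minus strand): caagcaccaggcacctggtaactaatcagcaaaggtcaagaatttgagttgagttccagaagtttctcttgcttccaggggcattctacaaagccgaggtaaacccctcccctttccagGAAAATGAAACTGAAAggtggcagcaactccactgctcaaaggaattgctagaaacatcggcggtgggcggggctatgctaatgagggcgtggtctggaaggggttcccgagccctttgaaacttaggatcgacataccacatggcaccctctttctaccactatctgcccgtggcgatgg
Ifi27 (chr6:128355062-128355361, plus strand): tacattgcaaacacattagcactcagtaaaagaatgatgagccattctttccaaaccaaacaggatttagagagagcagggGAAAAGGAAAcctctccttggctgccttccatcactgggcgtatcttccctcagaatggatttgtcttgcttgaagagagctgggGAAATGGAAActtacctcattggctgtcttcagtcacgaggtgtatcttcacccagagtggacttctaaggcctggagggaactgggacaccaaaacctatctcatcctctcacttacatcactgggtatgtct
The motif lay at position -69 of Irf7 and -4 of Psmb8, on the reverse strand, at -131 and -125 of Bst2 and at -169 and -84 of Ifi27, counted from the start site. It occurred in 13 of the 25 list members with a promoter in the table (52%), against 3.92% of 33469 promoters and 3.25% of 8157 promoters of named genes tested. The list was chosen for interferon-induced genes, so a high share follows from that choice and says nothing about TU. Of the members with the lowest means, Oas1a held 2 matches, and Psmb9, with a mean of -0.57, held 0 in this window. RT1-A2, with a mean of -0.53, also held 0. Members near or above 0 held the motif too: Psmb10 had 2 matches (mean -0.002), B2m 1 (0.14) and Cxcl10 1 (0.04). Cxcl11, RT1-Bb and RT1-Da, with means above 0, held 0. A match is a description of letters, not of binding.

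Macrophage markers stood lower on the same arrays. Of 12 Kupffer cell and macrophage markers measured, 11 had a mean below 0, 4 were lower at an unadjusted p under 0.05, and the median was -0.17 (-0.18 without array 2). Besides Cd68, the complement genes C1qa and C1qc stood at -0.39 and -0.45, and the Kupffer cell lectin Clec4f at -1.23, 0.04, -0.26 and -0.17. Their summed signal over the obese arrays ranged from 41200 to 75700 in vehicle and from 32900 to 58800 in TU, with TU over vehicle at 0.699, 1.01, 0.777 and 0.932 on arrays 1 to 4. All 12 markers were well above background in Cy3 on all 4 obese arrays, and 10 of them in Cy5. The part of these cells in the interferon result was not tested, and in whole liver fewer cells of a type and less RNA per cell cannot be told apart.

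Of the remaining lists, genes of endoplasmic reticulum folding and the amino acid response had 19 of 27 members below 0, 7 lower and 1 higher at an unadjusted p under 0.05 (backgrounds 6.09% and 6.53%), and a median of -0.19. Without array 2 6 were lower and 0 higher (3.43% and 3.23%), with a median of -0.13. The disulfide isomerases Pdia3 (-0.96, -1.14, -0.24 and -0.28), Pdia4 (-0.87, -0.53, -0.06 and -0.39) and Pdia6 (-0.25, -0.49, -0.36 and -0.21) were below 0 on every array. Antioxidant and NRF2-linked genes were mixed: 7 of 23 were above 0, 2 were higher and 5 lower at an unadjusted p under 0.05, and 3 lay above and 8 below 0 on every array. Their median was -0.18 with array 2 and -0.05 without it, where the counts were again 2 and 5. Peroxiredoxin Prdx6 stood at -0.42, -0.80, -0.17 and -0.21, the glutathione synthesis enzyme Gclc at -0.60, -0.84, -0.01 and -0.42, and the aldehyde reductase Akr7a3 at -0.15, -0.87, -0.65 and -0.19. In drug metabolism 12 of 48 genes were higher and 7 lower (backgrounds 6.53% and 6.09%), and without array 2 14 were higher and 5 lower (3.23% and 3.43%). The median was 0.05, and 0.00148 without array 2. Members above 0 on every array included the epoxygenase Cyp2j4 (0.49, 1.45, 0.62 and 0.35), the sulfotransferase Sult1b1 (0.43, 0.74, 0.39 and 0.43) and the carboxylesterase Ces1d (0.21, 0.64, 0.65 and 0.19). Members below 0 on every array, chosen after their values were seen, included the epoxide hydrolase Ephx1 (-0.76, -1.82, -0.53 and -0.43) and the glutathione transferase Gstm1 (-0.71, -1.28, -0.20 and -0.16). Respiratory chain genes had 9 of 38 higher and 1 lower (backgrounds 6.53% and 6.09%), with 12 above and 4 below 0 on every array and a median of 0.08. Without array 2 8 were higher and 1 lower, with a median of 0.04. The cytochrome c oxidase subunit Cox6c stood at 0.24, 0.93, 0.49 and 0.33. The small subunits Ndufa1 and Ndufa5 had means of 0.30 and 0.35, and the ATP synthase subunit Atp5f1a, chosen after its values were seen, had a mean of -0.40. Clock and cell cycle genes had 0 higher and 1 of 18 and 3 of 30 lower (background 6.09%), with medians of -0.10 and 0.05. Without array 2 both had 0 higher and 0 lower, with medians of -0.01 and -0.06. The clock output Dbp stood at -1.07, -1.44, 0.39 and -0.02, and the cyclin Ccnd1 at -0.13, -0.60, -0.84 and -0.17. For 10 of the 23 lists the sign of the median depends on the processing. Over the alternatives the cholesterol synthesis median ran from -0.2 to 0.356, sterol sensing from -0.0264 to 0.103, bile acids from -0.157 to 0.168, glucose production from -0.0336 to 0.242, and amino acids from -0.106 to 0.479. Male-biased genes ran from -0.0336 to 0.283, growth hormone signalling from -0.0293 to 0.08, clock genes from -0.191 to 0.0169, drug metabolism from -0.00561 to 0.242, and cell cycle genes from -0.17 to 0.0978.

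**Figure D4:**
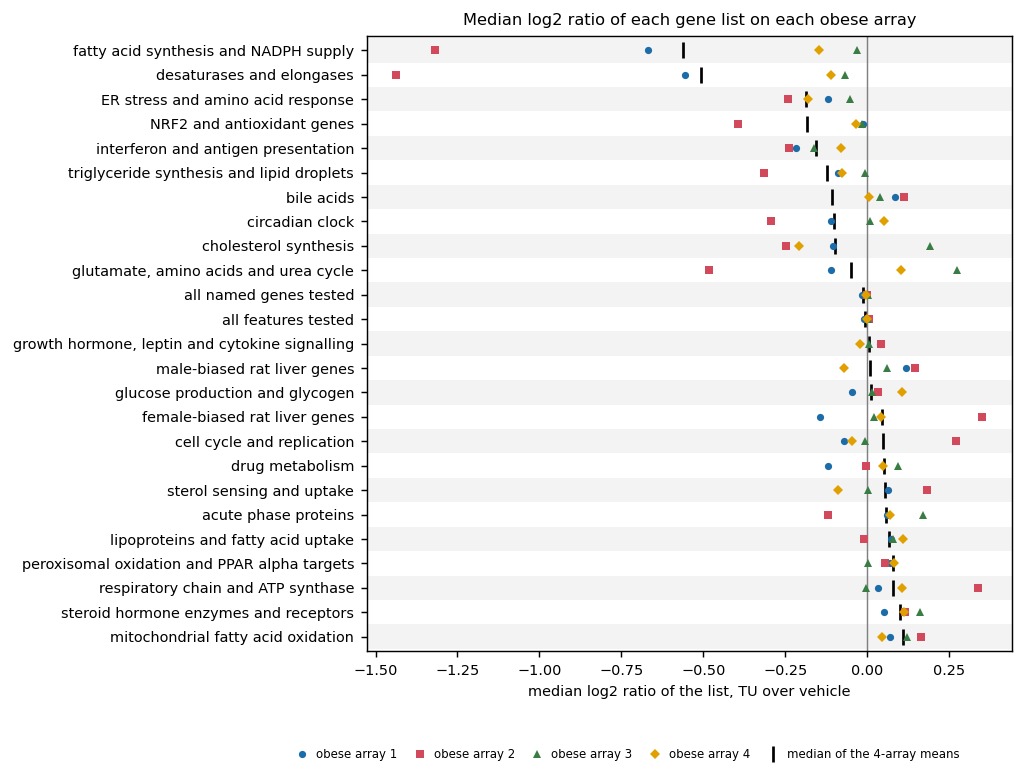
Median log2 ratio of TU over vehicle (x axis) of each of 23 gene lists, of all named genes and of all features (y axis), with 1 marker per obese array and a bar for the median of the 4-array means. Fatty acid synthesis and desaturases and elongases lie lowest, with arrays 1 and 2 at -0.67 and -1.32 and at -0.56 and -1.44, while arrays 3 and 4 lie at -0.03 to -0.15.

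Whether the response of obese rats differed from that of lean rats was tested as a contrast within the same fit. The difference passed in 1 of 24074 features (0.00415%) at a limma adjusted p under 0.05. It passed in 0 when any lean array, or obese array 1 or 4, was left out. At an unadjusted p under 0.05, 5.3% of features were higher and 2.64% lower in obese than in lean response. Glud1, Pim3 and Ugt2b also passed in lean rats (means 0.38 ± 0.054, 0.67 ± 0.082 and 0.50 ± 0.062), and their differences did not pass (limma adjusted p = 0.614 to 0.702).

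The named lipogenic genes had no difference between genotypes that passed. The median of the fatty acid synthesis list was -0.56 in obese and -0.45 in lean rats. That of desaturases and elongases was -0.51 in obese and -0.11 in lean rats. Neither gap was tested as a list. Fasn had means of -1.13 in obese and -1.36 in lean rats (difference 0.23 ± 0.45). Scd2 had -1.15 and 0.03 (difference -1.18 ± 0.39; limma adjusted p = 0.614) and Scd -1.18 and -0.21 (difference -0.97 ± 0.42; limma adjusted p = 0.628). At its brightest probe Prodh stood at -0.25 ± 0.10 in lean and 0.50 ± 0.10 in obese rats (difference 0.76 ± 0.14; limma adjusted p = 0.553). Its other probes did not share this gap, with 0.02 and -0.07 in lean and -0.01 and -0.16 in obese rats. The largest list gap was in erythroid markers, with a median of 0.74 in lean and -0.15 in obese rats over 6 genes, which was not tested as a list. Without obese array 2 the obese median was 0.03. The list medians on obese arrays 1 to 4 were -0.08, -0.42, 0.24 and 0.02, so the obese value has no common sign.

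**Figure D5:**
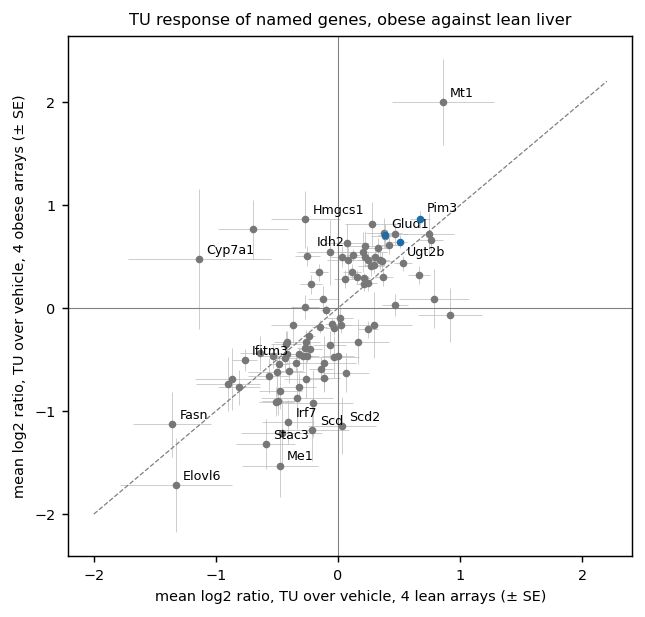
Mean log2 ratio of TU over vehicle on the 4 lean arrays (x axis) against the 4 obese arrays (y axis) for named genes, with bars for SE and a dashed line of equal response. The 3 genes called in obese liver are blue. Mt1, Scd2 and Me1, each by its brightest probe, lie far from the line without passing.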

How the data were processed

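Spot and background intensities (median pixel values) and processed intensities were deposited by the authors as Agilent Feature Extraction 10.7.3.1 output. The processed intensities and the deposited log10 ratios of red over green were background-subtracted and dye-normalized, per the file headers. The authors' deposited matrix holds log2 ratios of TU over vehicle: their slope on the scanner's log10 ratio was 3.33 to 3.38, medians on obese arrays were 0.0462 to 0.14, and the sources used here do not give their normalization. Here the median signals went through normexp background correction (offset 50) and within-array loess in limma 3.58.1 (R 4.3.3, data.table package, version 1.17.8), leaving out controls and non-uniform spots.

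A probe was kept where Cy3 or Cy5 was well above background on 4 or more of the 8 arrays (26981 probes). The brightest probe represented a gene. Names came from the array annotation, matched to RefSeq: 16815 probes by its newer version, 195 by its older alone, 24002 unnamed. Lean and obese means were fitted on all 8 arrays (lmFit, eBayes, 6 residual degrees of freedom) and p-values adjusted by Benjamini-Hochberg. All p-values are two-sided. A missing value was left out of the fit, which concerned 275 features. Per-channel levels were scaled between obese arrays by Aquantile.

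Named genes were those called, the 12 highest and 12 lowest with 1 sign on all arrays, central genes, and the 3 of lowest p per list. Some genes are not reported here; they stay in the fits and list counts. Members and lists were chosen with earlier results of these data known. Alternatives were median centring, scaled ratios, processed signals, the authors' ratios, no background correction, no filter, probe means, obese arrays alone, trend and robust settings, array weights, a replicate block and each array left out. The per-channel levels and the list counts without array 2 were added after the data were seen. The fit was tested on simulated data. With 4 arrays an exact sign-flip test cannot go below p = 0.125, so none was run. The number of arrays limits precision.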

Additional observations from a re-analysis of the deposited data

Results flagged for a closer look

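Single arrays stood apart from the other 3 obese arrays, by Dixon's ratio of gap to range, in 8 of 94 named genes with 4 values and in 1 of 23 list medians. For all 8 genes the array was array 2: Pim3 at 1.20, Rpl35 at 0.938, Uqcr10 at 1.04, Acaca at -1.35, Ppara at -0.523, Cyp4a1 at -0.0757, Sult1b1 at 0.737 and Soat2 at -1.47. The list median was that of NRF2 and antioxidant genes, at -0.396 on array 2. The rule's 95% level marks about 1 in 20 groups by chance, or 0.05 of them.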

How the results depend on the processing

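Under limma 3 features passed in obese liver, and 0 with median centring, scaled ratios, the mean of a gene's probes, obese arrays alone, or trend and robust settings. Processed signals gave 208, the authors' log ratios 196, no background correction 83, array weights 168, and processed signals without array 2, chosen after seeing the data, 37. Leaving out 1 array gave 0 to 2. The obese-minus-lean count of 1 became 0 with centring, scaling, no background correction, probe means and trend, 2 with processed signals (also without array 2) and the authors' ratios, 14 with weights, and 0 to 3 with 1 array left out. List members called (3) became 0 wherever the whole count did, 5 with the authors' ratios, 8 without background correction, 34 with weights and 1 with processed signals without array 2, and 0 to 2 with 1 array left out. Named genes called (3) became 0 likewise, 7 with processed signals or the authors' ratios, 20 without background correction, 34 with weights, 1 with processed signals without array 2, and 0 to 2 with 1 array left out. The replicate block left 0 calls in every count. Same-numbered lean and obese arrays correlated with r of 0.0547, -0.101, 0.154 and -0.00662. The best obese partner had the same number for replicates 1 and 3 and another number for replicates 2 and 4. Whether same-numbered arrays share more than a number cannot be told from correlations of ratios. The cause of these changes was not tested.

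Medians of fatty acid synthesis (-0.722 to -0.186) and desaturases (-0.656 to -0.199) kept their sign in every alternative. With 1 array left out they were -0.722 to -0.298 and -0.656 to -0.199. The interferon median was -0.425 with scaling, -0.305 with processed signals or the authors' ratios, -0.236 without background correction, -0.388 with processed signals without array 2, and -0.208 to -0.147 with 1 array left out.

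Some means changed sign, among them Insig1 (0.54 as reported) and Dbp (-0.53). Median centring gave Pck1 0.195, G6pc1 0.242, Apob 0.328, Cyp2c11 0.281, Lepr 0.000223 and Pdia6 0.0142. Scaling gave Cpt1a -0.0908, Apob 0.202 and Dbp 0.505. Processed signals and the authors' ratios gave Pck1 0.0903 and Igf1 -0.0163. Probe means gave Insig1 -0.181, Mttp -0.224, Igf1 -0.127 and Scarb1 -0.0141. Weights gave Ppara 0.0291 and Dbp 0.0191, and no background correction Mttp -0.013. With 1 array left out the sign turned for 7 genes, whose ranges were -0.463 to 0.0131 (Acaca), -0.146 to 0.302 (Cpt1a), -0.156 to 0.0459 (Ppara), -0.316 to 0.148 (Pck1), -0.44 to 0.208 (G6pc1), -0.0703 to 0.156 (Mttp) and -0.268 to 0.0493 (Apob). Processed signals without array 2 gave Acaca 0.0252, Ppara 0.0682, Pck1 0.332, Mttp -0.0491 and Igf1 -0.143.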

Other observations

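In obese liver, 8 named genes passed both from the scanner's processed signals and with array quality weights, under limma at an adjusted p under 0.05, although only Pim3 passed in the main analysis. They were chosen after their values were seen. Idh2, Ambp, Pim3 and the sodium-citrate carrier Slc13a5 were higher, and Serpina6, Bst2, Irf7 and the interferon-inducible GTPase gene Ifgga2l1 were lower. Slc13a5 had log2 ratios of 0.34, 0.76, 0.20 and 0.40 on arrays 1 to 4, and Ifgga2l1 of -1.77, -0.82, -0.53 and -1.01. With array weights their estimates were 0.32 (limma adjusted p = 0.0246) and -0.88 (0.0417). The weights were 0.688, 0.154, 2.94 and 3.1 for obese arrays 1 to 4, so arrays 3 and 4 set those estimates.

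Fatty acid transport genes outside the named set differed from each other. Fabp5, a fatty acid binding protein, stood at -1.77, -1.46, -1.82 and 0.28 and the acyl-CoA synthetase Acsl5 at -1.84, -1.21, -0.16 and -0.38, while the liver form Fabp1 stood at 0.40, 0.87, 0.63 and 0.10. All of these were chosen after their values were seen, and none passed.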
